A study of Rattus norvegicus with 6 samples.

Results

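The regions described here are the 188 windows of the rat genome in which CpG methylation of the dorsal root ganglion (DRG) was higher in every library taken after spinal nerve ligation than in every sham library, by 8 percentage points or more on average. The genome was divided into windows of 1000 bp, and a window was tested if it held at least 3 CpG sites that each of the 6 libraries covered with 20 or more reads. There were 29759 such windows, so 0.632% met the rule. The methylation of a window is the percent of methylated reads among all reads summed over its sites. The windows were selected on the ordering of the library values and on the 8-point difference of group means, so the differences between groups given below describe the windows and support nothing by themselves.

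The 2 groups had 3 libraries each, from male Sprague-Dawley rats of 8 to 9 weeks and about 220 g, and all libraries were taken at week 3 after surgery. In the SNL group the left L5 and L6 spinal nerves had been tied tightly with silk, which is a model of neuropathic pain. The Sham group had surgery without a ligature, which the labels place on the side opposite to the ligation. Libraries of the 2 groups may therefore share animals, the labels do not say which libraries came from separate animals, and they do not say which ganglia were collected. A spread between libraries may thus be technical in part.

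A DRG holds the cell bodies of sensory neurons, wrapped by satellite glia, together with Schwann cells, vessels and immune cells. DNA methylation at CpG is laid down and copied by DNA methyltransferases. It is typically low in active promoters and CpG islands, high over most of the remaining genome, and intermediate at many distal regulatory elements and wherever cell types of a tissue differ. Reduced representation bisulfite sequencing (RRBS) cuts DNA at CCGG with the enzyme MspI and sequences the ends of short fragments after bisulfite has converted unmethylated cytosines, so it reads small stretches of CpG-rich DNA. In whole ganglia a different mix of cells and a different level within a cell type cannot be told apart, and the labelled tissue could not be checked against marker genes, since no expression was measured.

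One of the windows could be tied to a sequence by the spacing of its CpGs, and it is shown because it may lie just before a transcription start. Runs of at least 5 sites with less than 100 bp between neighbours were compared with 33469 RefSeq promoters (250 bases before to 50 after a start, build GRCr8). A match required the same spacing of CpGs with no further CpG between them. Of 21 runs in the 188 windows, 4 matched some promoter, and 1 matched a promoter that lies between the same 2 genes as the window. This run has 6 sites at chromosome 10, 38948820 to 38948859 (rn4), in the window 38948000 to 38948999 between the Gdf9 and Il13 entries of the authors' deposited table. Its spacing occurs in 1 of the promoters, that of Sowaha (GRCr8 chr10:38146150-38146449, minus strand). The 300 bases hold 13 CpGs and 1 CCGG. The 6 capital CG are the matched CpGs, 74 to 35 bases before the start.
Sowaha: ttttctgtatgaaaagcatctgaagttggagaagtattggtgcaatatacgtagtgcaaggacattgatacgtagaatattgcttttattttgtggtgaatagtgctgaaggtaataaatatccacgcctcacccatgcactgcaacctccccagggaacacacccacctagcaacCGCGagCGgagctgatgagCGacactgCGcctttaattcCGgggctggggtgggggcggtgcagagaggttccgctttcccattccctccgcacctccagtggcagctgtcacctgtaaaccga
Methylation of this window was 30%, 19.1% and 24.6% in SNL 1 to 3 and 14.96%, 18.6% and 7.77% in Sham 1 to 3. The lowest SNL library was 0.53 points above the highest Sham library, while each group spanned about 11 points (10.9 and 10.8). The difference of means was 10.8 points, from 24.6% ± 5.45 and 13.8% ± 5.50 (SD, n = 3), and all 6 sites had a higher SNL mean. The match rests on spacing in another build and is a description of where these CpGs may lie.

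The summed coverage of listed CpG cytosines was 27247702 to 34293779 reads per library. In the 188 windows the median coverage per window was 153 to 192.5 reads by library, and the shallowest library of a window had 60 to 2376 reads (median 134.5, against 178 over all tested windows). Sites within a read of 50 bases can share reads, and in 86 of the 188 windows (45.7%, against 42.2% of all) every site lay within such a group. Reads carry no molecular identifiers, so repeated reads of a molecule cannot be told from reads of separate molecules. Depth limits counting error at most, and possibly less than the number of reads implies.

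Gains were fewer than losses. The opposite rule, every SNL library below every Sham library by 8 points or more, was met by 624 windows, 3.32 times as many. Without SNL 3 the counts were 402 gains and 750 losses, 1.87 times as many. Without SNL 2, Sham 1, Sham 2 or Sham 3 the gains numbered 365, 304, 376 and 295, again fewer than the losses. Leaving out SNL 1 gave fewer gains than leaving out any other library, and losses again outnumbered them. SNL was above Sham in every library in 1359 windows (4.57%), whatever the size of the difference, and below in 3261. Of the 20 possible arrangements of the 6 libraries, 1 has every SNL library above every Sham library. The share of 4.57% by itself is therefore no evidence of a gain. A further 135 windows were 8 points or more higher on average but overlapped between groups. Averaged over the 188 windows, methylation was 59.8%, 57.6% and 57.3% in SNL 1 to 3 and 46.3%, 47.8% and 47.4% in Sham 1 to 3. Over all tested windows the group means were 65.3% ± 0.70 and 66.1% ± 0.33 (SD, n = 3), a difference that was not tested here.

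Most gains were moderate and many were narrow. The difference ranged from 8.02 to 21.5 points with a median of 10.4, against -0.47 over all tested windows. It reached 12 points in 53 windows, 15 in 18 and 20 in 3. The gap between the lowest SNL and the highest Sham library had a median of 3.47 points (0.07 to 14.04). It was under 1 point in 22 windows and under 2 points in 52. The median SD between libraries was 3.35 points in SNL and 3.78 points in Sham, against 3.6 and 3.57 in all windows with a Sham mean of 20 to 80%. In 4 windows a group spanned more than 20 points. SNL 1 was the highest SNL library in 99 of the 188 windows, and Sham 1 the lowest Sham library in 76. In the mean over all tested windows SNL 1 was also the highest of its group, at 66.1% against 65.1% and 64.8%. Sham 1 was also the lowest of its group there, at 65.7% against 66.2% and 66.4%.

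**Figure D1:**
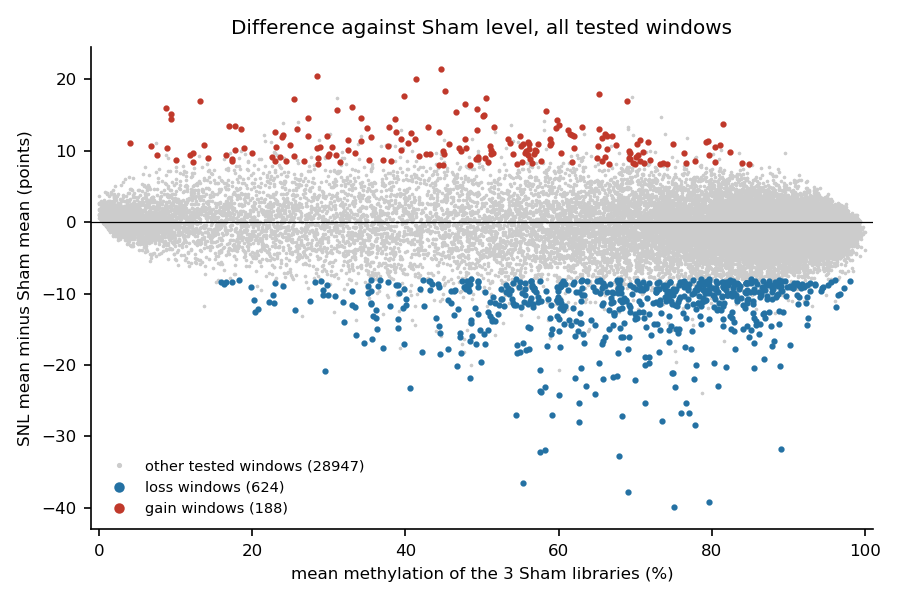
Difference of group means (SNL minus Sham, percentage points) against the mean methylation of the 3 Sham libraries (percent) for each tested window, with the 188 gain windows in red, the 624 loss windows in blue and all others in grey. Gain windows reach 21.5 points and lie mostly at Sham levels between 20 and 80%; grey points among the coloured ones are windows whose groups overlap.

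The window with the largest difference lay on chromosome 14, 101130000 to 101130999 (rn4), between entries for Rab1a, a small GTPase of transport from the endoplasmic reticulum, and Slc1a4, a neutral amino acid transporter. Its 4 sites gave 68.5%, 67.8% and 62.0% in SNL and 35.7%, 53.2% and 45.05% in Sham (means 66.1% and 44.7%). The groups were 8.84 points apart at their closest, and Sham 1 was the lowest of all libraries. Site by site, SNL was higher by 18.4 points at 101130071, 26.3 at 101130095, 11.8 at 101130112 and 29.8 at 101130195, and no site overlapped between groups.

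The next largest difference belonged to a pair of adjoining windows on chromosome 5, between Foxe3, a forkhead factor of lens development, and Cmpk1, a kinase that makes pyrimidine nucleotide diphosphates. They are the only 2 of the 188 windows that lie within 5 kb of each other. The window at 135262000 to 135262999 had 50.0%, 46.4% and 50.4% in SNL and 23.9%, 29.3% and 32.3% in Sham, a difference of 20.4 points with a gap of 14.04, the widest among the 188. Its 5 sites lie at 135262923 to 135262971 and differed by 8.98 to 27.4 points, each without overlap. The window at 135263000 to 135263999 had 32.5%, 24.3% and 38.2% against 18.7%, 21.5% and 15.5%, a difference of 13.0 points. Its first site, at 135263003, lies within a read length of the last site of the neighbouring window and differed by 15.03 points. The other 8 sites lie nearly 1 kb on, at 135263890 to 135263935, and differed by -1.35 to 17.9 points. The first of the pair lies 23.6 kb downstream of the start listed for Foxe3.

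Sox2, a transcription factor of neural progenitors that satellite glia also express, was the nearest listed gene to the third largest difference, 11.8 kb downstream of its start (chromosome 2, 120980000 to 120980999). Methylation was 57.3%, 65.7% and 61.6% in SNL against 27.1%, 45.4% and 51.9% in Sham. The Sham libraries were widely spread (SD 12.8 points), and the difference of 20.1 points became 12.9 without Sham 1. The 3 sites, at 120980764 to 120980793, differed by 18.5 to 21.7 points and lie within a single read length. A further window whose nearest listed start was that of Sox2, 448.2 kb away (121417000 to 121417999), had 69.1%, 67.1% and 68.8% against 64.2%, 50.4% and 57.4%.

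The remaining windows among the 12 largest lay near genes of varied function. Near Mideas, a subunit of a mitotic deacetylase complex (chromosome 6, 108261000 to 108261999; 16.4 kb upstream), methylation was 65.4%, 70.4% and 54.6% in SNL and 47.2%, 44.4% and 43.7% in Sham. Its 3 sites (108261803 to 108261826) differed by 14.2 to 25.2 points. Between Cfap20, a ciliary protein, and Mmp15, a membrane-bound metalloproteinase (chromosome 19, 10108000 to 10108999), the values were 88.8%, 84.5% and 76.4% against 56.5%, 71.0% and 68.3%. Its 3 sites, at 10108799 to 10108821, differed by 13.3 to 23.1 points. In both windows the groups stayed apart by more than 5 points (7.32 and 5.37), on only 63 to 87 reads per library.

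Akap7 and Akap1 both encode anchoring proteins that hold protein kinase A at membranes. The window 67.3 kb upstream of Akap7 (chromosome 1, 20505000 to 20505999) had 62.2%, 56.5% and 53.8% in SNL and 32.6%, 43.2% and 43.6% in Sham, from 3 sites within 9 bp (20505933 to 20505941) that differed by 14.01 to 19.7 points. The window 249.8 kb from Akap1 (chromosome 10, 77027000 to 77027999) had 65.2%, 41.6% and 40.5% against 28.4%, 36.7% and 33.9%. There SNL 1 stood far above the other 2 SNL libraries, and the difference of 16.1 points became 7.99 without it.

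A further 4 of the 12 had gaps of 0.26 to 11.5 points. Between Marchf11 and Fbxl7, which both encode ubiquitin ligase components (chromosome 2, 78697000 to 78697999), methylation was 70.6%, 69.4% and 63.4% against 53.9%, 47.1% and 50.4%. Near Zbtb14, a zinc finger factor (chromosome 9, 108493000 to 108493999; 17.6 kb upstream), it was 68.7%, 63.4% and 60.7% against 44.9%, 49.3% and 49.0%. These windows had gaps of 9.57 and 11.5 points. Between Slc5a3, a myo-inositol transporter, and Kcne2, a potassium channel subunit (chromosome 11, 32207000 to 32207999), the values were 85.3%, 91.2% and 81.1% against 69.4%, 60.8% and 76.5%. Between Il11ra1, the interleukin 11 receptor, and Ccl21, a chemokine (chromosome 5, 59213000 to 59213999), they were 50.8%, 15.4% and 24.4% against 11.4%, 13.2% and 15.1%. That last window had the widest spread within a group, 35.4 points in SNL. Without SNL 1 its difference of 17.0 points became 6.65, and with a coverage minimum of 10 it was 9.04.

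**Figure D2:**
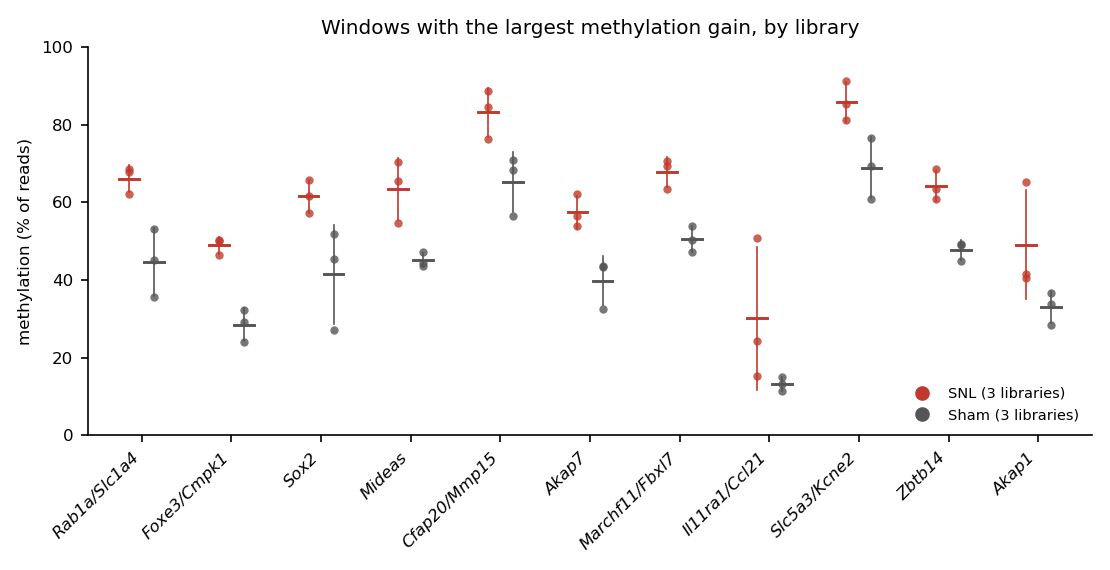
Methylation (percent of reads) of 11 of the 12 windows with the largest difference, in order of size, for each SNL library (red) and Sham library (grey), with the mean (horizontal bar) and SD (vertical line, n = 3). A name is the nearest listed gene, or the genes of the entries on either side; no red point lies at or below a grey point of its window, and the Il11ra1/Ccl21 and Akap1 windows each have 1 SNL library far above the other 2.

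The windows that hold the most sites show how a gain varied along the tested sites, although its ends were not measured. The largest number, 13 sites, lay on chromosome 2, 32675000 to 32675999, within 0.1 kb of a start listed for Pik3r1, the regulatory subunit of phosphoinositide 3-kinase. Methylation was 86.3%, 84.5% and 77.9% in SNL and 66.1%, 74.9% and 74.1% in Sham, a difference of 11.2 points at 690 to 930 reads. The gain was uneven along the window. From 32675376 to 32675411 the 6 sites differed by 13.6 to 22.9 points, while the site at 32675345 was at 95.7% and 95.8% (a difference of -0.10) and the 4 sites from 32675684 to 32675717 differed by 3.11 to 9.37.

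Of the other windows rich in sites, that near Nup42, a nucleoporin (chromosome 4, 6353000 to 6353999; 16.0 kb downstream), had 9 sites that were all higher in SNL. Its libraries were close together, at 74.5%, 72.2% and 74.9% against 61.5%, 65.1% and 58.1%. The 8 sites near Cradd, a death-domain adaptor (chromosome 7, 32504000 to 32504999; 12.9 kb downstream), gave 47.6%, 43.6% and 51.0% against 35.9%, 35.0% and 35.7%. In both the gap exceeded 7 points (7.10 and 7.70). The 11 sites 64.1 kb upstream of Fzd6, a Wnt receptor (chromosome 7, 74498000 to 74498999), gave 44.0%, 33.5% and 32.5% against 26.4%, 29.5% and 29.9%, and the difference of 8.09 points became 4.43 without SNL 1.

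Depth was greatest at Shh, which encodes the secreted ligand of the hedgehog pathway (chromosome 4, 2209000 to 2209999). With 2376 to 3457 reads per library, methylation was 16.3%, 16.3% and 18.2% in SNL and 8.01%, 7.24% and 7.36% in Sham. Levels were low in both groups, the libraries of a group differed by at most 1.98 points, and the gap was 8.25 points. The authors' deposited table lists 3 of its 4 sites, flagged as exon and CpG island, with differences of 6.16, 13.6 and 8.60 points. The fourth site, at 2209754, had 57 reads or more per library and differed by 6.09 points with overlap. The start listed for Shh lies 9.2 kb away.

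Maf, a basic leucine zipper factor needed by touch-sensing DRG neurons during development, was the next deepest (chromosome 19, 45865000 to 45865999; 4.3 kb upstream). Its 5 sites gave 75.3%, 75.4% and 71.5% against 58.8%, 69.8% and 66.4%, on 2196 to 2887 reads. Depth did not bring the Sham libraries together (SD 5.64 points), and the difference of 9.05 points became 5.95 without Sham 1. Near Khdrbs3, a splicing regulator (chromosome 7, 106560000 to 106560999; in an intron flagged by the authors' deposited table), the values were 71.5%, 72.7% and 73.1% against 61.2%, 62.4% and 62.5%. Those groups were tight (SD 0.83 and 0.74), yet the mean of its 3 sites with equal weight differed by 6.14 points in place of 10.4. Near Mir23b, a microRNA gene (chromosome 17, 7381000 to 7381999; 29.6 kb upstream), 6 sites gave 67.9%, 63.2% and 60.1% against 54.5%, 54.9% and 56.4%.

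**Figure D3:**
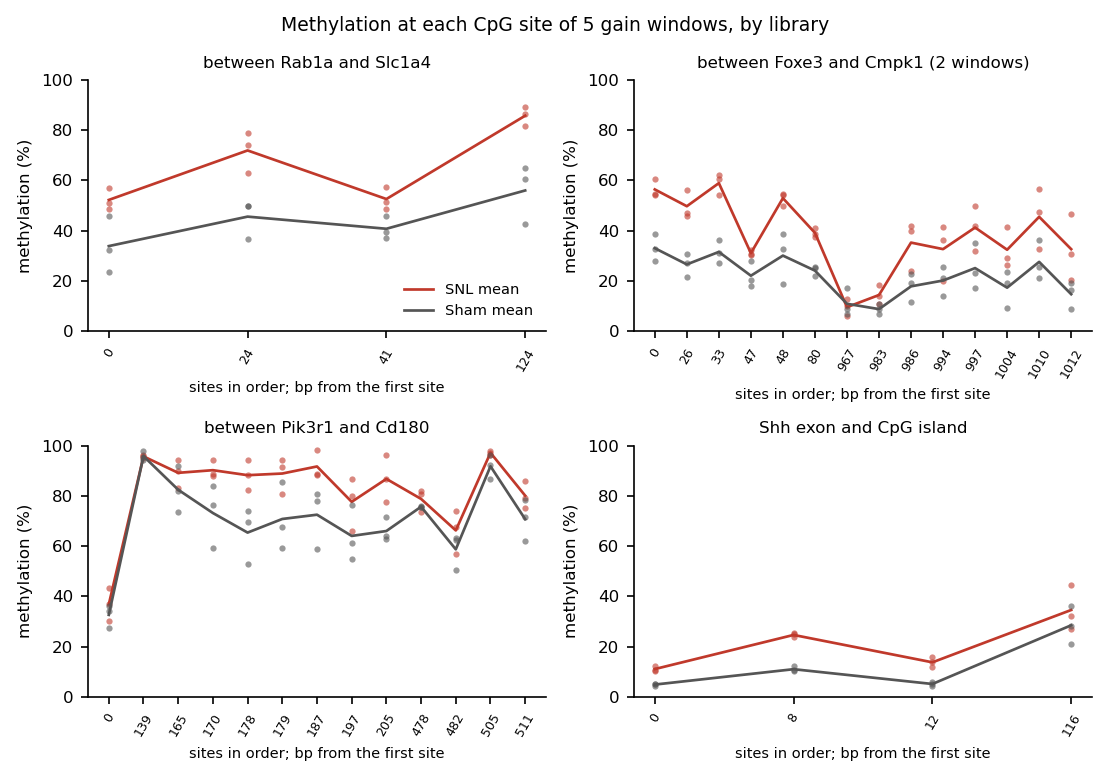
Methylation (percent) of each tested CpG site, in order along the chromosome and labelled by distance in bp from the first site, for 5 gain windows in 4 panels (the 2 adjoining windows share a panel); points are libraries and lines are group means, SNL in red and Sham in grey. The groups separate at every site between Rab1a and Slc1a4, and mainly in a central run of sites near Pik3r1. Between Foxe3 and Cmpk1, where the sites form 2 stretches nearly 1 kb apart, they separate at every site of the first window. In the second window they separate at 5 of 9 sites. In the Shh island they separate at low levels, at 3 of 4 sites.

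Within the 188 windows the gain was shared by most sites but seldom clean at each of them. Of 738 sites, 704 (95.4%) had a higher SNL mean, against 44.2% of the 124110 sites in all tested windows. At 356 sites (48.2%, against 4.19%) the groups did not overlap. Every site was higher in 158 windows, every site was without overlap in 16, and 13 windows had no such site, so that the ordering appeared only in the sum. Without its site of largest gain, a window still met the full rule in 90 of 188 cases and was still without overlap in 123. The rule favours such counts of windows, and none is given here for other windows, so they only describe the 188. Shallower neighbours that the rule did not use gave a weaker picture. Sites with 10 to 19 reads in their shallowest library numbered 221, in 82 of the windows. Of these 125 (56.6%, against 44.2% in all tested windows) were higher in SNL, with a median difference of 1.67 points (against 0.0), and 20 (9.05%, against 3.19%) did not overlap. They come from the same libraries, and some share reads with the sites that chose the window.

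Few neighbouring windows could be tested. The next window 1 kb to either side was tested in 20 cases, of which 12 were higher in SNL, with a median difference of 0.53 points (40.0% of tested windows outside the 188 were higher, with a median of -0.49), and 4 did not overlap (20%, against 3.96%). At 2 to 10 kb there were 4 to 15 such windows at each distance. Their medians lay between -1.42 and 1.98 points with no order by distance, and the share without overlap was 0 at 2, 3, 6, 9 and 10 kb and 6.67% to 18.2% at the others. The 188 windows fell on every autosome, from 1 of 1139 tested windows on chromosome 20 (0.0878%) to 10 of 1032 on chromosome 15 (0.969%). Chromosome X had 0 of 252, which allows a share of up to 1.19%.

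Most gain windows were at intermediate methylation. In Sham, 158 of 188 (84.0%) were at 20 to 80%, against 29.4% of all tested windows and 70.5% of the loss windows. The median Sham mean was 49.5% in gain windows, 70.5% in loss windows and 81.8% in all. A window near 100% has no room for such a gain and one near 0% none for a loss, and levels between them vary more between libraries, so the rule itself shapes this profile. Among the 8751 windows at 20 to 80% in Sham, 1.81% met the gain rule and 5.03% the loss rule.

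In 23 windows (12.2%) the Sham mean was under 20%, against 6 (0.962%) of the loss windows and 17.8% of all, and in 7 (3.72%) it was over 80%. The lowest was 133.7 kb from the start listed for the transcript NM_001013952 (chromosome 7, 18988000 to 18988999), with 11.8%, 17.0% and 16.8% in SNL and 5.83%, 4.46% and 2.08% in Sham. Between Asic4, an acid-sensing ion channel, and Stk11ip (chromosome 9, 74762000 to 74762999) the values were 21.7%, 14.1% and 16.7% against 3.85%, 4.23% and 12.5%, and the difference of 10.6 points became 4.04 with a coverage minimum of 10. The Shh island was the remaining one of the 3 lowest. At the other end, the 3 highest Sham means were 84.8% near Pawr, a regulator of cell death (chromosome 7, 47033000 to 47033999), 84.0% between NM_017298 and Dcp1a (chromosome 16, 5699000 to 5699999) and 82.4% near Dock1, an activator of Rac (chromosome 1, 194230000 to 194230999). Dock1 stood at 91.5%, 91.4% and 93.9% in SNL against 84.1%, 82.5% and 80.6%, with a gap of 7.21 points.

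**Figure D4:**
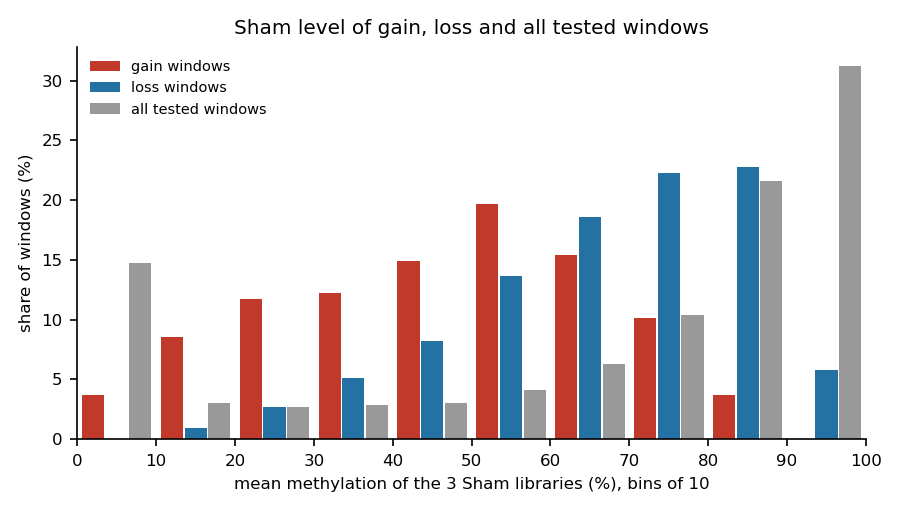
Share of windows (percent of each class) in bins of 10 points of the mean methylation of the 3 Sham libraries, for the 188 gain windows (red), the 624 loss windows (blue) and all 29759 tested windows (grey). The gain windows peak at 50 to 60% (19.7%), the loss windows at 80 to 90% (22.8%) and all windows at 90 to 100% (31.2%).

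Annotation by the authors was available for sites of at least 100 reads, which 33 of the 188 windows hold. None (0 of the 33) has a promoter flag in the authors' deposited table, against 8.0% of the 8120 tested windows with a listed site and 7.38% of such loss windows. A count of 0 in 33 allows a share of up to 9.09%, so a shortage of promoters could not be detected. Introns were flagged in 10, exons in 4, shores in 4 and CpG islands in 2, and 17 had no flag. The exon windows were those of Shh, S1pr5, Cdk5rap2 and Scd2.

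S1pr5, a receptor for sphingosine 1-phosphate, had flags for exon, island and shore together (chromosome 8, 20279000 to 20279999; 4.3 kb downstream), and its values were 47.7%, 38.2% and 43.3% against 33.2%, 37.7% and 29.5%. The groups were only 0.57 points apart. Scd2, a fatty acid desaturase (chromosome 1, 249369000 to 249369999), had 43.4%, 37.4% and 39.1% against 30.9%, 35.1% and 28.5%. The window flagged as exon 126.7 kb from the start of Cdk5rap2, a centrosome protein (chromosome 5, 87611000 to 87611999), had 70.5%, 64.4% and 60.5% against 55.5%, 57.5% and 55.8%, and its difference was 8.82 points, or 15.8 with sites weighted equally.

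The 3 shore windows besides S1pr5 were close to the starts of their genes. Ndrg2, a member of the N-myc downstream regulated family (chromosome 15, 27348000 to 27348999; 1.6 kb upstream), had 71.0%, 67.1% and 70.9% against 56.0%, 61.4% and 59.4%, with all 3 sites without overlap. The window 1.0 kb downstream of the start of the transcript NM_001107033 (chromosome 10, 74086000 to 74086999) had 52.6%, 61.6% and 56.9% against 40.7%, 49.1% and 43.5%. Pals2, a scaffold protein of cell polarity (chromosome 4, 78342000 to 78342999; 1.3 kb upstream), had 66.9%, 57.4% and 57.7% against 49.3%, 55.7% and 48.6%. The first 2 had gaps of 5.70 and 3.51 points, and Pals2 1.75.

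A start listed in the authors' deposited table lay within 1 kb of 6 windows (3.19%, against 6.45% of all tested windows). These 6 were chosen for description after their values were seen. Besides Pik3r1 they are Creb3l4, a membrane-bound transcription factor, with a Sham mean of 8.74% and a difference of 16.0 points, and Shisa7, an accessory protein of GABA-A receptors, with 17.0% and 13.5 points. Slc39a14, a metal importer, had a Sham mean of 23.6% and a difference of 9.10 points, Nkx2-3, a homeobox factor, had 40.3% and 11.04, and Rsph6a, a radial spoke protein, had 59.0% and 11.1. These levels ran from low to intermediate, and none of the 6 windows had a site deep enough for the table's own flags.

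By the nearest listed start, 104 of the 188 windows (55.3%, against 52.8% of all) could be placed at 1 gene, 100 genes in all. The other 84 lay between entries of different genes. The median distance was 47.3 kb, against 59.7 kb for all placed windows and 69.8 kb for placed loss windows. Of the 104, 13 lay within 5 kb, and 38 lay beyond 100 kb.

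Among 12 gene lists, the developmental transcription factors held the most gain windows, 10 of 568 placed windows (1.76%), against 0.662% of all 15705 placed windows, with 9 loss windows beside them. The median difference over the list was -0.42 points, against -0.53 over all placed windows. Its 10 windows belong to 9 genes. Tfap2a, the AP-2 alpha factor of neural crest (chromosome 17, 30011000 to 30011999; 5.8 kb upstream), was the most even, with 38.5%, 43.9% and 43.5% in SNL and 27.2%, 28.4% and 26.4% in Sham. Its gap was 10.1 points, and 2 deep sites at 30011852 and 30011869 differed by 15.4 and 14.6 points. Tfap2c, its paralogue, had 59.6%, 58.9% and 57.4% against 50.0%, 44.8% and 53.8% in a window 74.5 kb away.

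Runx1, which directs nociceptor differentiation, had 35.7%, 30.3% and 32.8% against 21.8%, 26.0% and 25.3%, 375.5 kb from its start. Pax3, a neural crest factor, had 55.0%, 53.1% and 49.1% against 38.0%, 46.5% and 48.6% (chromosome 9, 77458000 to 77458999). Its difference was the smallest of the 188 and became 4.82 points without Sham 1. Tbx3, a T-box factor, was at 24.6%, 26.3% and 20.6% against 9.09%, 11.2% and 8.00%, 438.0 kb from its start. The windows of the homeobox factors Irx1 and Nkx2-3 differed by 11.7 and 11.04 points. Several of these windows lie far from the gene that names them, so a link to the gene was not tested.

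The signalling list (Wnt, BMP, FGF, TGF-beta, Notch and hedgehog) held 3 gain windows of 197 placed windows (1.52%), at Shh, Notch1 and Fzd7. It had 7 loss windows and a median difference of -0.67 points. Gain windows not placed at 1 gene are left out of this count. Some of these had their nearest listed start at Fgfr3 (2.0 kb away), Jag1 (33.9 and 197.7 kb) or Fzd6 (the site-rich window described above). Near Notch1, a receptor of cell-contact signalling (chromosome 3, 4705000 to 4705999; 28.2 kb upstream), methylation was 70.1%, 69.1% and 61.9% against 43.9%, 61.0% and 60.2%, and the difference of 12.04 points became 6.47 without Sham 1. Near Fzd7, a Wnt receptor (chromosome 9, 58066000 to 58066999; 3.1 kb downstream), it was 63.1%, 45.9% and 50.7% against 37.5%, 40.4% and 44.3%, and the difference of 12.5 points became 7.60 without SNL 1. No site of the Fzd7 window was without overlap.

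**Figure D5:**
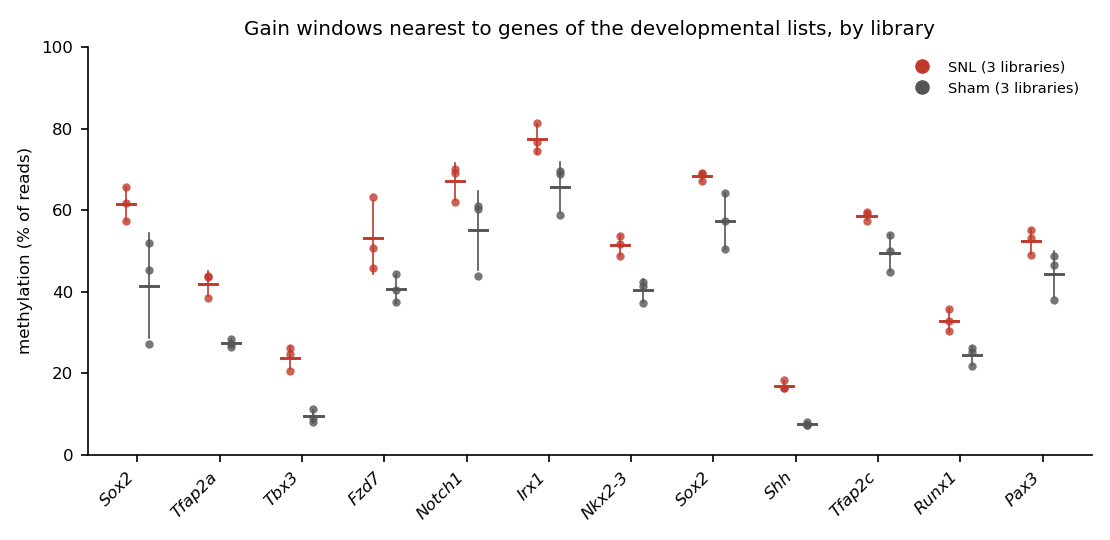
Methylation (percent of reads) of 12 of the 13 gain windows placed at genes of the developmental transcription factor and signalling lists, in order of difference, for each SNL library (red) and Sham library (grey), with mean (horizontal bar) and SD (vertical line, n = 3). Tfap2a and Shh have tight groups with gaps of 10.1 and 8.25 points, while Notch1 and Pax3 have gaps of 0.91 and 0.41 points.

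Immune genes had 2 gain windows of 179 placed windows (1.12%), with 5 loss windows and a median difference of -0.59 points. Cxcr4, the receptor of the chemokine CXCL12 (chromosome 13, 41309000 to 41309999; 2.4 kb downstream), was high in all libraries, at 88.7%, 90.7% and 87.8% against 82.6%, 80.4% and 75.8%, and its 3 sites were without overlap. Cd247, the zeta chain of the T-cell receptor complex (chromosome 13, 81565000 to 81565999; 50.0 kb downstream), had 64.1%, 67.5% and 67.4% against 58.7%, 57.5% and 50.0%. Solute carriers had 2 of 315 (0.635%; 6 loss windows; median -0.63 points), near Slc25a25, a mitochondrial carrier, with a difference of 8.72 points, and Slco1a3, an organic anion transporter, with 8.60 points. Adhesion genes had 1 of 335 (0.299%; 2 loss windows; median -0.81 points), placed at Adgrl3, a latrophilin whose listed start is 1172.0 kb away. The Adgrl3 window differed by 8.58 points, or by 4.13 with sites weighted equally.

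Channels and transmitter receptors, which set the excitability of sensory neurons, had no gain window among those placed at 1 gene. There were 0 of 140 windows at potassium channel genes (1 loss window; median -0.99 points), 0 of 95 at sodium and calcium channel genes (1; -0.65) and 0 of 64 at glutamate, GABA, glycine and acetylcholine receptors (0; -0.85). Axon guidance genes had 0 of 160 (4; -1.22), neurotrophin and GDNF genes 0 of 56 (3; -0.73), Schwann cell and myelin genes 0 of 38 (0; -0.80) and matrix and integrin genes 0 of 89 (1; -0.85). A count of 0 allows a share of up to 1.88% in the guidance list and up to 7.89% in the Schwann cell list. Both are above the 0.662% of all placed windows, so fewer gains than elsewhere could not be detected in these lists. Gain windows between entries of different genes are not counted in any list, nor are windows at transcripts without a matched symbol. For some gain windows between different genes the nearest listed start was that of Kcne2 (75.9 kb away), Asic4 (34.4 kb), Kcnc1 (124.3 kb) or the guidance gene Efnb2 (3.3 kb).

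The rule did not use the share of reads that fell in the 188 windows. At tested sites this share differed by less than the spread between libraries. The 188 windows took 0.2491%, 0.2437% and 0.2419% of the coverage at tested sites in SNL 1 to 3 and 0.2451%, 0.2442% and 0.2432% in Sham 1 to 3. The group means were 0.2449% ± 0.0037 and 0.2441% ± 0.0009 (SD, n = 3; exact two-sided permutation test over 20 arrangements, p = 0.9, where 0.1 is the smallest it can give). With all listed sites of the windows the means were 0.1876% ± 0.0031 and 0.1836% ± 0.0017 (SD, n = 3; exact permutation p = 0.2), a difference of 0.004 points that exceeds both SDs, although the libraries of the groups overlapped.

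A logistic fit of the summed counts on group, over all 29759 windows and with Benjamini-Hochberg adjustment, called 220 windows (0.739%), 34 of them higher after SNL (0.114%) and 186 lower. With library offsets the split was 84 higher and 135 lower. Of the 188 windows 22 were called, and 178 had an unadjusted p under 0.05, against 3122 of all 29759. Since rule and fit use the same contrast, these counts add no evidence. The 2 largest windows and those of Tfap2a, Shh, Maf, Nup42, Cradd, Pik3r1, Khdrbs3, Dock1 and Ndrg2 were among the 22, the other 10 of the 12 largest were not, and 12 higher windows that were called did not meet the rule. An unmoderated F test and limma on logit values each called 0 windows (2658 and 2602 at an unadjusted p under 0.05). With library offsets 45 of the 188 were called, and with same-numbered libraries fitted as a block 7 were. Without SNL 1, SNL 2, SNL 3, Sham 1, Sham 2 or Sham 3 the counts were 11, 13, 13, 8, 17 and 7.

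Windows on the 2 sides of the 8-point threshold had similar values. The 4 just inside it, with differences of 8.09, 8.05, 8.03 and 8.02 points, were those upstream of Fzd6, near Klf6, a zinc finger factor, near Dlgap3, a scaffold of synapses, and near Pax3. The Klf6 window (chromosome 17, 75625000 to 75625999) had 57.7%, 53.0% and 58.8% against 47.6%, 50.1% and 47.5%. The Dlgap3 window (chromosome 5, 146646000 to 146646999) had a gap of 0.59 points, and its difference was 4.83 with sites weighted equally and 5.25 with a coverage minimum of 10. The 4 concordant windows just outside differed by 7.97, 7.96, 7.88 and 7.87 points, those of 7.96 and 7.87 near Septin11 and Slc14a2.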

How the data were processed

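The submitters' processing notes name Bismark 0.18.1, Bowtie2, methylKit 1.3.3 and the build rn4 for the 3 SNL and 3 Sham RRBS libraries. A human assembly named in the protocol text does not match the listed positions. Per the file headers, a deposited library file lists every measured cytosine with its read count (coverage) and its percent of C and of T. The authors' deposited table gives p-values, q-values, differences, feature flags and the distance to the nearest transcript start. The set-up of that test is not stated in the sources used here.

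Methylated counts were recovered as coverage times percent. Mitochondrial sites were left out, strand is not recorded, and neighbouring positions were kept as separate sites. Windows were fitted by logistic regression on group, with Pearson overdispersion (4 residual degrees of freedom) moderated by squeezeVar of limma with a floor of 1, a two-sided F test and Benjamini-Hochberg adjustment at 0.05. The fit was also run on simulated windows with the same overdispersion in every window and no shifts between libraries. That setting is simpler than these data, so it does not show how the fit behaves on them. Alternatives changed 1 choice at a time. A window was placed at a gene by its own table entry, or where the entries on both sides name the same transcript with starts within 10 bp. Names came by accession from RefSeq GRCr8 (7627 of 8123 transcripts matched). The 12 gene lists go by the start of the symbol, with the next letters fixed where unrelated symbols share a start (Cd, Il, Trp and others). The windows named were the 12 largest, those richest in sites, deepest, in annotated features, adjoining, lowest and highest in Sham, nearest the threshold, and up to 2 per gene list. Single windows of 2 genes are not reported here, while counts include them. Windows, lists and naming rules were chosen with earlier results of these data known. Tools were Python 3.11.15 with numpy 2.4.6, pandas 2.3.3 and matplotlib 3.10.9, and R 4.3.3 with limma 3.58.1 and version 1.17.8 of data.table.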

Additional observations from a re-analysis of the deposited data

How the results depend on the processing

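The number of gain windows depends on the rule more than on how windows are drawn. It was 181 to 187 with windows of 500 or 2000 bp, shifted by 500 bp or with positions 1 bp apart merged, 198 with equally weighted sites (152 of the 188 kept) and 235 with library centring (187 kept). It was 516 with a coverage minimum of 10 (64004 windows tested, 152 kept), 92 with 30 (16806 tested, 86 of the 91 tested kept), 38 with at least 5 sites, 489 at 5 points or more and 53 at 12 points or more. Leaving out 1 library gave 214 to 402 windows, with 149 to 170 of the 188 kept, since 2 libraries are more easily separated from 3. Loss windows outnumbered gain windows under each of these settings, by 1.87 to 4.87 times. Without their site of largest gain, an alternative chosen after the data were seen, 90 of the 188 met the rule. The median difference over all 188 was then 8.50 points. The other settings gave medians of 9.70 to 10.96. The fit called 0 windows with an unmoderated F test and 0 with limma on logit values (2658 and 2602 at an unadjusted p under 0.05, and 136 and 165 of the 188), and 103 with a coverage minimum of 30, of which 9 were among the 188. Leaving out 1 library gave 94 to 251 calls and 7 to 17 among the 188. With library offsets 45 of the 188 were called. Same-numbered SNL and Sham libraries had correlations of -0.035, 0.135 and -0.068 between their deviations. Other combinations ranged from -0.166 to 0.196, and not every library correlated best with its own number. With 3 libraries per group these values cannot show whether same-numbered libraries share an animal. With the replicate block 116 windows were called, 7 of them among the 188. The 387 alternative values of the 43 named windows ranged from 4.04 to 25.73 points, and 0 changed sign. Leaving out 1 library cannot reverse a window that met the rule, so for those settings the sign was fixed beforehand. Apart from what a setting does by construction, the cause of these shifts was not tested.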
